A study of Mus musculus with 9 samples.

Results

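The 8 chemokine ligands Cxcl1, Cxcl2, Cxcl5, Cxcl10, Cxcl16, Cx3cl1, Ccl2 and Ccl20 were followed by RNA-Seq in MyC-CaP cells treated with ASPN. They were picked by gene name, all 8 were among the 15384 genes of the count table, and they were picked with their differences from time 0 already known. Those differences are therefore given as a description with no p-value, whereas 24 hours against 12 hours was tested, also with earlier results known. ASPN (asporin) is an extracellular matrix protein of the tumor stroma, and the MyC-CaP line was grown from a mouse prostate tumor. The cells of all groups were first starved of serum and calcium for 6 to 12 hours and were then collected at 0, 12 or 24 hours, with recombinant ASPN at 100 ng/mL and 3 replicate libraries per time. The labels name ASPN as the treatment of the 0-hour libraries too, and these are called time 0. No library of 12 or 24 hours without ASPN was among the 9, so the treatment and the hours in culture cannot be told apart. The labels call the libraries biological replicates and the protocol describes wells plated in triplicate, so the p-values measure the spread between these samples only. In such bulk samples, fewer cells that express a gene and less of its RNA per cell cannot be told apart.

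Chemokines are small secreted proteins that bind G protein-coupled receptors and draw leukocytes along a gradient. Cxcl1, Cxcl2 and Cxcl5 carry the ELR motif, bind Cxcr2 and attract neutrophils, Cxcl10 binds Cxcr3 on activated T cells, Ccl2 binds Ccr2 on monocytes, and Ccl20 binds Ccr6. Cxcl16 and Cx3cl1 differ from the rest in that they are made as membrane-anchored proteins, from which metalloproteases release the soluble ligand. Many chemokine genes are transcribed after inflammatory signals through NF-κB, and epithelial tumors are among the tissues known to express the ELR ligands.

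The libraries held 41881191 to 52993821 counts (median 44779129), at which a floor of 3 counts is worth 0.055 to 0.0735 CPM (the count relative to the TMM-scaled library size). The TMM factors of the 24-hour libraries (0.898 to 0.911) were below those of the other 6 (1.04 to 1.07). The cells were checked against defining markers. The luminal keratin Krt8 had 1162 to 2038 counts, Krt19 had 3915 to 7001 and the prostate factor Hoxb13 had 3129 to 5021. The epithelial genes Epcam (0 to 1 count) and Cdh1 (0 to 10) were near absent, so the label of an epithelial-like cell was met by its keratins and not by its adhesion genes.

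Cxcl1, Cxcl2 and Cxcl5 lie in 1 cluster of CXC ligand genes on mouse chromosome 5 (GRCm38), which spans 146.6 kb from 90759360 to 90905938. Its 7 protein-coding genes are all transcribed from the plus strand, in the order Cxcl5, Ppbp, Pf4, Cxcl3, Cxcl15, Cxcl1 and Cxcl2. Cxcl5 (ENSMUSG00000029371) is at chr5:90759360-90761624, Cxcl1 (ENSMUSG00000029380) at chr5:90891241-90893115 and Cxcl2 (ENSMUSG00000058427) at chr5:90903871-90905938. Cxcl10 (ENSMUSG00000034855) is on the same chromosome outside the cluster, at chr5:92346638-92348889 on the minus strand.

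The promoters of Cxcl10 and of 3 genes of the cluster are shown. These 3, Cxcl1, Cxcl2 and Cxcl3, were picked because they hold the same letters upstream of the gene start. Promoters (RefSeq, GRCm38.p6) reached from 250 bases before the start to 50 bases after it, and 5 of the 8 ligands had an entry. Both strands were searched for the κB consensus (the motif of NF-κB), for the interferon-stimulated element (GAAA, any 2 bases, GAAA) and for the AP-1 motif TGANTCA. In the 120 bases before the start shown here, capitals mark matches to the κB consensus and to the AP-1 motif, and overlapping matches run together.
Cxcl1 (chr5:90891125-90891244, plus strand): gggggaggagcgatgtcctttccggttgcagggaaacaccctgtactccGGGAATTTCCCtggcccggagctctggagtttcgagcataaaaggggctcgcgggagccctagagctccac
Cxcl2 (chr5:90903779-90903898, plus strand): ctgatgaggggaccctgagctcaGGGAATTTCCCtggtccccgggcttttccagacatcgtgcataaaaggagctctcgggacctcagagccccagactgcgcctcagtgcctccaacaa
Cxcl3 (chr5:90785981-90786100, plus strand): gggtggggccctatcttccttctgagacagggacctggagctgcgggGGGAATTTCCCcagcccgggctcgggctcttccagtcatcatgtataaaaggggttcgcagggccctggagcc
Cxcl10 (chr5:92348890-92349009, minus strand): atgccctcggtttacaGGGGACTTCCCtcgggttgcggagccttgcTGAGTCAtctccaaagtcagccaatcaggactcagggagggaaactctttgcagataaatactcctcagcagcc

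The κB consensus was found in 4 of the 5 promoters, those of Cxcl1, Cxcl2, Cxcl10 and Ccl20, and in 2779 of all 32851 promoters of the reference (8.46%). Among the other chemokine ligands it was found in 4 of 24. The exact letters GGGAATTTCC, a search added after the sequences had been seen, began 71 bases before the start of Cxcl1, 97 before Cxcl2 and 73 before Cxcl3, and were found in 29 of the 32851 promoters (0.0883%). Cxcl10 also held the interferon-stimulated element, 213 bases before its start and outside the stretch shown (3.44% of all promoters), and the AP-1 motif 74 bases before it (7.81%). The promoter of Cx3cl1 held none of these letters in this window. These are matches of letters, and binding was not measured.

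Cxcl1, the neutrophil attractant also known as KC, had 5.27, 7.33 and 4.78 CPM in the 3 libraries of time 0. It had 457, 541 and 444 CPM at 12 hours and 405, 485 and 427 CPM at 24 hours. Every treated library was far above every library of time 0, and the libraries of 12 and 24 hours overlapped. The means were 5.79 ± 1.35 CPM (SD, n = 3) at time 0, 481 ± 52.5 at 12 hours and 439 ± 41.4 at 24 hours, a ratio of 83-fold at 12 hours and 75.8-fold at 24 hours over time 0. The log2 fold change was 6.39 (SE 0.10) at 12 hours and 6.25 (SE 0.12) at 24 hours, the 3rd highest of the 11410 genes tested at 12 hours. Between 12 and 24 hours the log2 difference was -0.11 (95% interval -0.25 to 0.03), with an adjusted p of 0.18 by edgeR's quasi-likelihood test. Over the 7 alternatives of test, scaling, filter and fit it was -0.33 to -0.09 and was never called. With these and with a library left out, the adjusted p ranged from 0.0011 to 0.78 (edgeR or DESeq2).

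Cxcl2, the neighbor of Cxcl1 and also known as MIP-2, had 0.871, 0.686 and 0.531 CPM at time 0. It reached 41.0, 54.6 and 42.1 CPM at 12 hours and 59.2, 70.8 and 61.8 CPM at 24 hours. All libraries of 24 hours were above all libraries of 12 hours, which were above all of time 0. The log2 fold change over time 0 was 6.05 (SE 0.15) at 12 hours and 6.53 (SE 0.12) at 24 hours, from means of 0.696 ± 0.170, 45.9 ± 7.55 and 63.9 ± 6.08 CPM (SD, n = 3). The difference of 0.50 (95% interval 0.31 to 0.68) between 24 and 12 hours had an adjusted p of 3.6e-04 by edgeR's quasi-likelihood test but did not reach the fold change of 1.5 that a call needed. Without replicate 2 of 12 hours it did, at 0.64. Over the 7 alternatives of test, scaling, filter and fit the difference was 0.27 to 0.52. The separation of the libraries of 24 and 12 hours was read in TMM-scaled CPM only. Of the stretches of 75 bases of the Cxcl2 mRNA, 2.02% are identical in Cxcl3, so reads there cannot be assigned to 1 of these genes.

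Cxcl5, a neutrophil attractant made by many epithelial cells, had 11.1, 15.1 and 13 CPM at time 0. It had 483, 670 and 471 CPM at 12 hours and 623, 719 and 638 CPM at 24 hours. The treated libraries did not overlap those of time 0, and replicate 2 of 12 hours fell within the range of the 24-hour libraries. From 13.1 ± 2.01 CPM (SD, n = 3) at time 0 the mean was 41.4-fold higher at 12 hours (541 ± 111) and 50.4-fold higher at 24 hours (660 ± 52.2). On the log2 scale these changes were 5.37 (SE 0.13) and 5.66 (SE 0.10). The log2 difference between 24 and 12 hours was 0.30 (95% interval 0.10 to 0.51), with an adjusted p of 0.019 by edgeR's quasi-likelihood test. This was under the fold needed for a call. Over the 7 alternatives of test, scaling, filter and fit the difference was 0.08 to 0.33. With these and with a library left out, its adjusted p ranged from 1.7e-05 to 0.49 (edgeR or DESeq2).

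**Figure D1:**
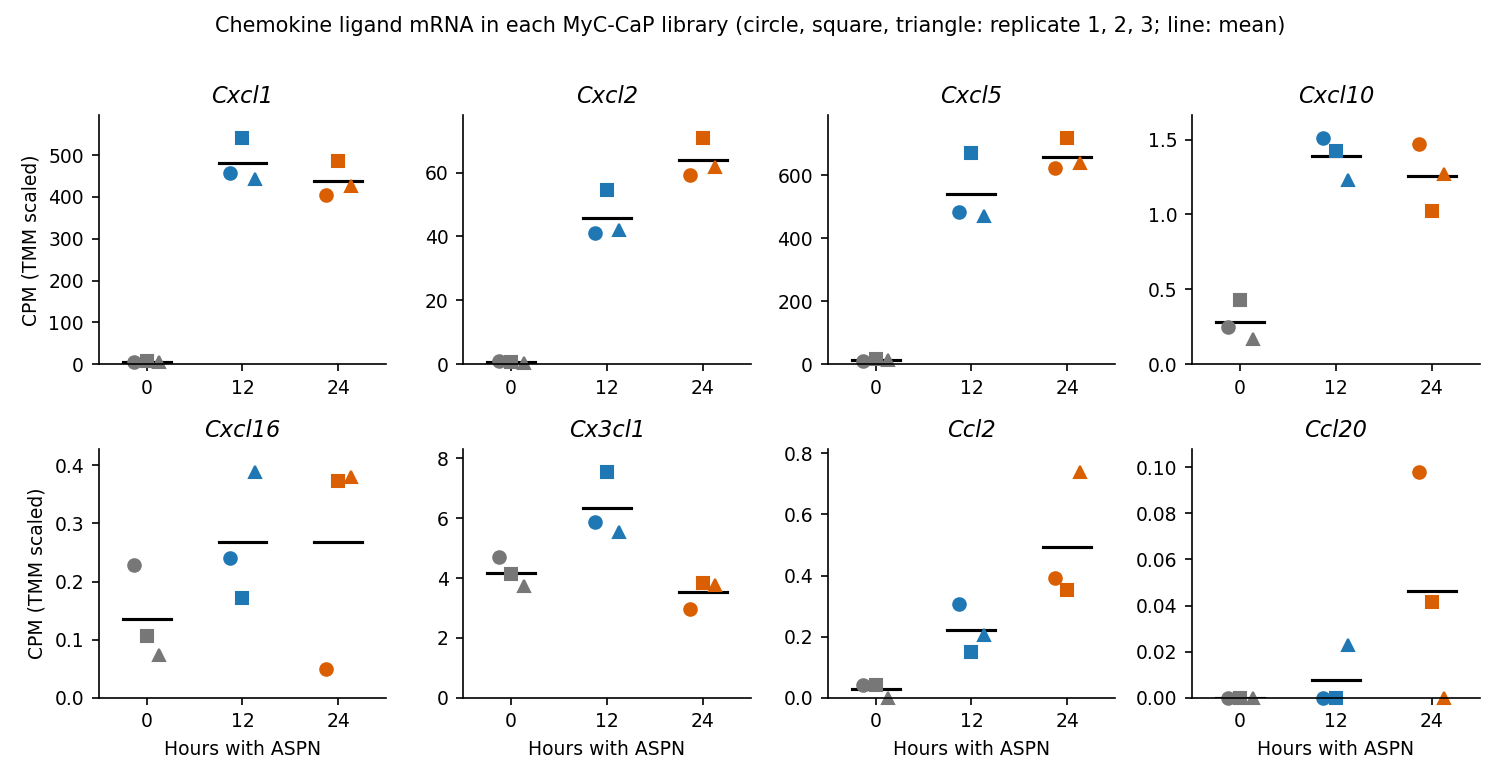
TMM-scaled CPM of the 8 chemokine ligands (y axis, linear, a separate scale per gene) against hours with ASPN, with circles, squares and triangles for replicates 1, 2 and 3 and a line for the mean of 3 libraries. Cxcl1, Cxcl2 and Cxcl5 lie near 0 at time 0 and at 405, 41.0 and 471 CPM or more in the treated libraries, Cx3cl1 is highest at 12 hours, and Ccl20 does not exceed 0.0981 CPM.

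Cxcl10, an interferon-inducible attractant of T cells, had 0.249, 0.429 and 0.165 CPM at time 0 (9 to 20 counts). It had 1.51, 1.42 and 1.23 CPM at 12 hours and 1.47, 1.02 and 1.27 CPM at 24 hours. The libraries of both treated times were above those of time 0 and overlapped each other. The log2 fold change over time 0 was 2.33 (SE 0.30) at 12 hours and 2.16 (SE 0.35) at 24 hours. Between 24 and 12 hours the difference was -0.14 (95% interval -0.57 to 0.29), with an adjusted p of 0.59 by edgeR's quasi-likelihood test. Exons of Cxcl10 and of the gene Art3 on the opposite strand overlap by 133 bp, and Art3 had at most 1 count in a library.

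Ccl2, the monocyte attractant also known as MCP-1, lies on chromosome 11 (chr11:82035571-82037453, plus strand, ENSMUSG00000035385) and was close to the floor of detection. Its counts were 2, 2 and 0 at time 0, then 14, 7 and 9 at 12 hours and 16, 17 and 35 at 24 hours. The 3 groups of libraries did not overlap. In CPM the means were 0.0281 ± 0.0244, 0.221 ± 0.0789 and 0.495 ± 0.213 (SD, n = 3). Ccl2 passed the filter on low counts only through the 24-hour libraries, in which it was higher, and it was not tested at 12 hours against time 0. The log2 fold change over time 0 was 4.08 (SE 0.71) at 24 hours, or 3.49 without replicate 3 of time 0, and without the filter it was 2.92 (SE 0.88) at 12 hours. Between 24 and 12 hours the log2 fold change was 1.18 (SE 0.45), which met the thresholds of a call, but the 24-hour libraries also decided that the gene was tested, so it is given as a description. Without the filter it was again 1.18 (SE 0.49). The thresholds were missed with library totals in place of TMM scaling (0.96), without replicate 2 (0.96) or replicate 3 (1.13) of 12 hours, and without replicate 3 of 24 hours (0.76).

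Ccl20, the ligand of Ccr6 (chr1:83116766-83119167, plus strand, ENSMUSG00000026166), was barely detected. It had 0 counts in each library of time 0, 0, 0 and 1 count at 12 hours and 4, 2 and 0 counts at 24 hours. It passed the filter in none of the comparisons, and a difference was not detectable at this depth.

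Cx3cl1, or fractalkine, whose soluble form attracts monocytes and T cells through Cx3cr1 (chr8:94772009-94782427, plus strand, ENSMUSG00000031778), moved in another way. It had 4.69, 4.12 and 3.74 CPM at time 0, 5.88, 7.55 and 5.53 CPM at 12 hours and 2.97, 3.84 and 3.76 CPM at 24 hours. All libraries of 12 hours were above the others, whereas those of 24 hours and of time 0 overlapped. The log2 fold change over time 0 was 0.60 (SE 0.13) at 12 hours and -0.24 (SE 0.14, 95% interval -0.52 to 0.04) at 24 hours. From 12 to 24 hours Cx3cl1 fell by 0.82 on the log2 scale (SE 0.14, adjusted p of 1.8e-04 by edgeR's quasi-likelihood test), from 6.32 ± 1.08 to 3.52 ± 0.483 CPM (SD, n = 3). The value at 12 hours lies at the edge of the fold needed for a call, and it was not called with library totals (0.58), without replicate 3 of time 0 (0.53) or without replicate 2 of 12 hours (0.46).

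Cxcl16, which serves as a scavenger receptor in its membrane form and binds Cxcr6 once shed (chr11:70453983-70459984, minus strand, ENSMUSG00000018920), had 2 to 18 counts in a library. It had 0.228, 0.107 and 0.0733 CPM at time 0, 0.241, 0.172 and 0.389 CPM at 12 hours and 0.049, 0.373 and 0.380 CPM at 24 hours. The libraries of the 3 times overlapped, and replicate 1 of 24 hours, with 2 counts, was the lowest of all. The log2 fold changes over time 0 were 0.97 (SE 0.54) at 12 hours and 1.02 (SE 0.67) at 24 hours, neither of them called. Without replicate 1 of 24 hours the later one was called, at 1.47. Between 24 and 12 hours the difference was 0.07 (95% interval -1.05 to 1.20, adjusted p of 0.92 by edgeR's quasi-likelihood test). Of the stretches of 75 bases of its mRNA, 18.2% lie opposite to Zmynd15, which had 0 to 3 counts, and the strand setting of the counting was not given in the sources used here.

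A call needed both a change of 1.5-fold or more and an adjusted p that did not exceed 0.05. At 12 hours, 6 of the 8 ligands were tested and 5 were called higher (Cxcl1, Cxcl2, Cxcl5, Cxcl10 and Cx3cl1), where 1.60% of all tested genes were called in either direction and 0.0964% lower. The libraries of 12 hours lay above those of time 0 for the same 5 of the 6 tested, for the untested Ccl2, and for 13.7% of all tested genes. At 24 hours, 7 were tested and 5 were called higher (Cxcl1, Cxcl2, Cxcl5, Cxcl10 and Ccl2), where 12.0% of all tested genes were called higher and 16.8% lower. The libraries of 24 hours lay above those of time 0 for these 5 and for 35.9% of all tested genes. Against time 0, Cxcl10 at both times and Ccl2 at 24 hours would not have passed the filter through the libraries of time 0 alone. The ligands were picked with these differences known, and both comparisons share the libraries of time 0, so the counts describe the choice. In the comparison of 24 with 12 hours, Cx3cl1 was called lower, where 15.3% of all tested genes were called lower. Ccl2 met the thresholds as higher, as did 10.4% of all tested genes, but it had passed the filter only through the libraries of 24 hours. The libraries of 24 hours lay above those of 12 hours for Ccl2 and Cxcl2 (35.7% of all tested genes) and below them for Cx3cl1 (38.1%). The other 5 tested (Cxcl1, Cxcl2, Cxcl5, Cxcl10 and Cxcl16) had differences under 1.5-fold. The median log2 difference of the 7 was 0.07, beside 0.00 for all 11394 tested genes. With library totals in place of TMM, the median of all genes moved to -0.22 in this comparison and to -0.24 at 24 hours against time 0. The shares of all genes called higher and lower then became 4.25% and 24.8% in this comparison, and 6.10% and 26.3% at 24 hours against time 0.

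**Figure D2:**
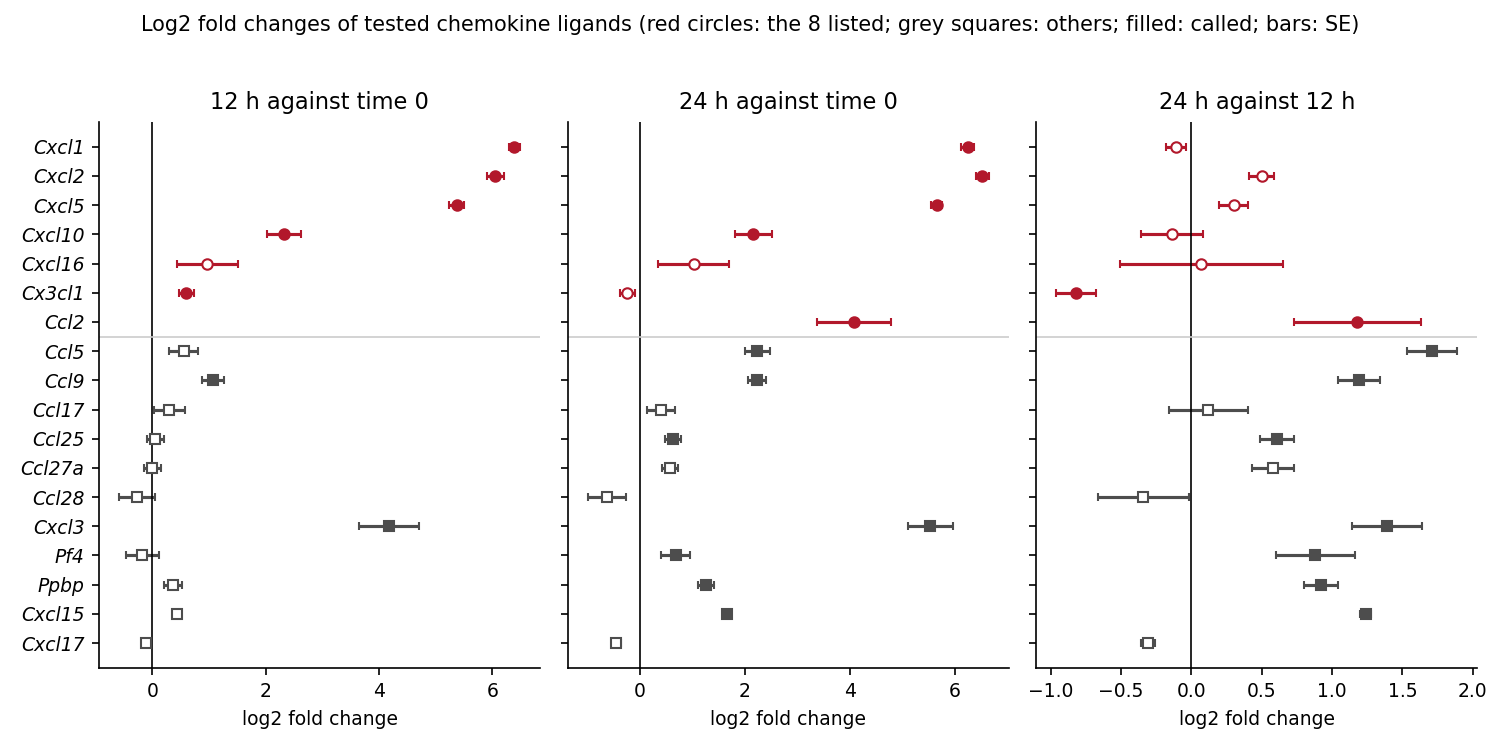
Log2 fold changes with their SE (x axis) of the tested chemokine ligands in the 3 comparisons, as red circles for the 8 listed ligands and grey squares for other ligands, filled where called. Cxcl1, Cxcl2 and Cxcl5 lie between 5.37 and 6.53 against time 0, and between -0.11 and 0.50 for 24 against 12 hours.

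The levels of the ligands were ordered in CPM per kb of mRNA, with the longest basic protein-coding transcript of each gene as its length. At time 0 the order was Cxcl5 (8.31 ± 1.27), Cxcl1 (6.08 ± 1.42), Cx3cl1 (1.26 ± 0.144), Cxcl2 (0.374 ± 0.0916) and Cxcl10 (0.208 ± 0.0996, SD, n = 3), followed by Cxcl16, Ccl2 and Ccl20 at or under 0.0505. Cxcl5 and Cxcl1 overlapped there, as did Cxcl2 and Cxcl10, Cxcl16 and Ccl2, and Ccl2 and Ccl20. At 12 hours the order was Cxcl1 (504 ± 55.1), Cxcl5 (344 ± 70.7), Cxcl2 (24.7 ± 4.06), Cx3cl1 (1.91 ± 0.325), Cxcl10 (1.03 ± 0.103), Ccl2 (0.272 ± 0.0971), Cxcl16 and Ccl20, and no neighbors in it overlapped. Cxcl2 had thus passed Cx3cl1, and Ccl2 was above Cxcl16, with which it had overlapped at time 0. At 24 hours Cxcl1 (461 ± 43.4) and Cxcl5 (419 ± 33.1) overlapped, Cxcl2 followed at 34.4 ± 3.27, and Cx3cl1 (1.06 ± 0.146), Cxcl10 (0.925 ± 0.168) and Ccl2 (0.609 ± 0.262) overlapped in turn. The order of Cxcl1 and Cxcl5 depended on the length: per kb of all annotated exons, Cxcl5 was above Cxcl1 at 12 hours (291 against 256) and at 24 hours (354 against 234).

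The ratio of Cxcl5 to Cxcl1, both per kb of mRNA, ranged from 1.25 to 1.65 in the libraries of time 0, from 0.639 to 0.749 in those of 12 hours and from 0.897 to 0.93 in those of 24 hours. The libraries of the 3 times did not overlap, and a change of the length would scale all 3 ranges alike. The ratio of Cxcl1 to Cxcl2 was 19.3 to 21.8 at 12 hours and 13.4 to 13.5 at 24 hours, and that of Cxcl5 to Cxcl2 was 13.2 to 14.5 and 12 to 12.4. For each of these 3 ratios, the last of which follows from the others, the libraries of 24 and 12 hours did not overlap. Such separation was common among single genes. The libraries of 24 hours lay above those of 12 hours for 35.7% of all tested genes and below them for 38.1%. A two-sided exact permutation test of 3 libraries against 3 cannot go below p = 0.1, the value it gave for each (adjusted p = 0.1), so it cannot show a difference at 0.05.

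The ligands as a whole were dominated by other genes before treatment. Over the 21 chemokine ligands in the table, which are the 8 and 13 others, the summed level of a time 0 library was 147 to 161 CPM per kb, that of a 12-hour library 947 to 1192 and that of a 24-hour library 1147 to 1293. Of this sum, the 8 ligands held 9.17% to 12.3% before treatment, 83.5% to 86% after 12 hours and 74.6% to 77.8% after 24. At time 0 most of it was Cxcl15, or lungkine (43.8% to 48.1%), and Cxcl17, a mucosal chemokine (33.4% to 39.3%). At 12 hours Cxcl1 alone held 47.6% to 49.4%, Cxcl5 31.6% to 35.7% and Cxcl2 2.27% to 2.46%. At 24 hours the share of Cxcl1 was lower, at 37.1% to 39.4%, that of Cxcl5 was 34.3% to 35.3%, and that of Cxcl15 was 16.9% to 19.3% after 8.3% to 9.62% at 12 hours. These shares rest on the transcript lengths, and with all annotated exons as the length Cxcl5 would stand above Cxcl1 at both treated times.

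**Figure D3:**
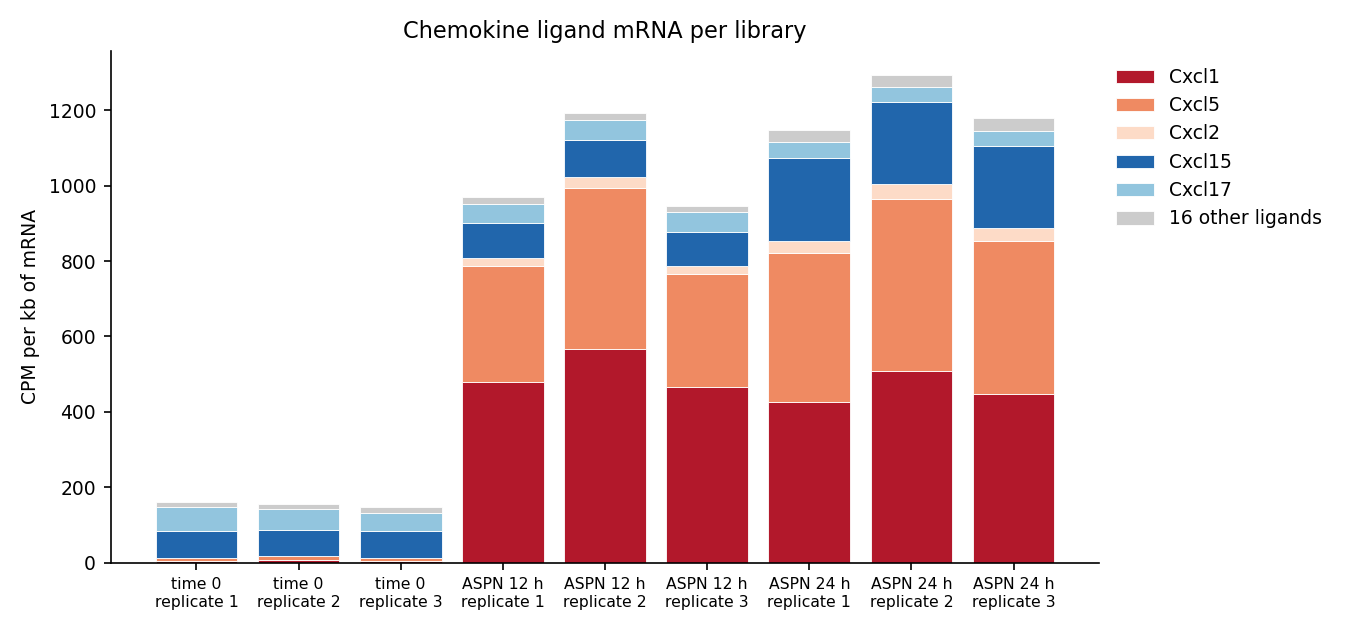
Summed level of 21 chemokine ligands in CPM per kb of mRNA (y axis, from 0) in each of the 9 libraries, split into Cxcl1, Cxcl5, Cxcl2, Cxcl15, Cxcl17 and 16 other ligands. Cxcl15 and Cxcl17 fill most of each bar at time 0, and Cxcl1 and Cxcl5 fill most of each bar at 12 and 24 hours.

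The 8 ligands were set beside 32 other mouse chemokine ligands, of which 13 were in the table and 11 were tested. Cxcl3 passed the filter against time 0 only through the treated libraries, in which it was higher, and is left out of the counts against time 0. Of the other 10, 1 was called higher at 12 hours (1.60% of all tested genes in either direction) and 6 at 24 hours (12.0%). At 24 against 12 hours 7 of the 11 were called higher (10.4%). With library totals, 5 of the 11 (Cxcl3 included) were called higher and 1, Cxcl17, lower at 24 hours against time 0, where 6.10% and 26.3% of all tested genes were, and 5 were called higher at 24 against 12 hours, where 4.25% were. The median log2 fold changes of these genes were 0.17, 0.66 and 0.88, beside 0.00, -0.02 and 0.00 for all tested genes.

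Cxcl3, a further ELR ligand of the cluster, had 0, 4 and 3 counts at time 0, 30, 57 and 34 at 12 hours and 90, 130 and 94 at 24 hours. Its log2 fold change at 12 hours was 4.17 (SE 0.53), or 4.81 without replicate 2 of time 0, and with no filter it was 4.17 as well. The treated libraries decided that it was tested against time 0, so this value is given as a description. From 12 to 24 hours, where both times passed the filter, it rose by 1.39 (SE 0.25, adjusted p of 2e-04 by edgeR). Cxcl15, also of the cluster, changed less at 12 hours (0.43, SE 0.04, adjusted p of 4.1e-07, under the fold needed) and was called higher at 24 hours against both earlier times (1.65 against time 0 and 1.24 against 12 hours). Its mean was 149 ± 2.83 CPM at time 0, 200 ± 9.99 at 12 hours and 467 ± 3.61 at 24 hours (SD, n = 3). The platelet chemokines Ppbp and Pf4, between Cxcl5 and Cxcl3, were called higher at 24 hours against time 0 (1.26 and 0.68) and against 12 hours (0.92 and 0.88). Their log2 fold changes at 12 hours, 0.36 and -0.18, were not called. For Pf4 the libraries of 24 hours overlapped those of time 0, and its call against time 0 was lost with library totals (0.46) and without replicate 2 (0.51) or 3 (0.67) of time 0 and replicate 1 (0.53) or 3 (0.65) of 24 hours. Along the cluster, the log2 fold changes at 12 hours were 4.17 to 6.39 for Cxcl5, Cxcl3, Cxcl1 and Cxcl2 and -0.18 to 0.43 for Ppbp, Pf4 and Cxcl15, given as a description because 3 of these genes were picked with their values known.

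**Figure D4:**
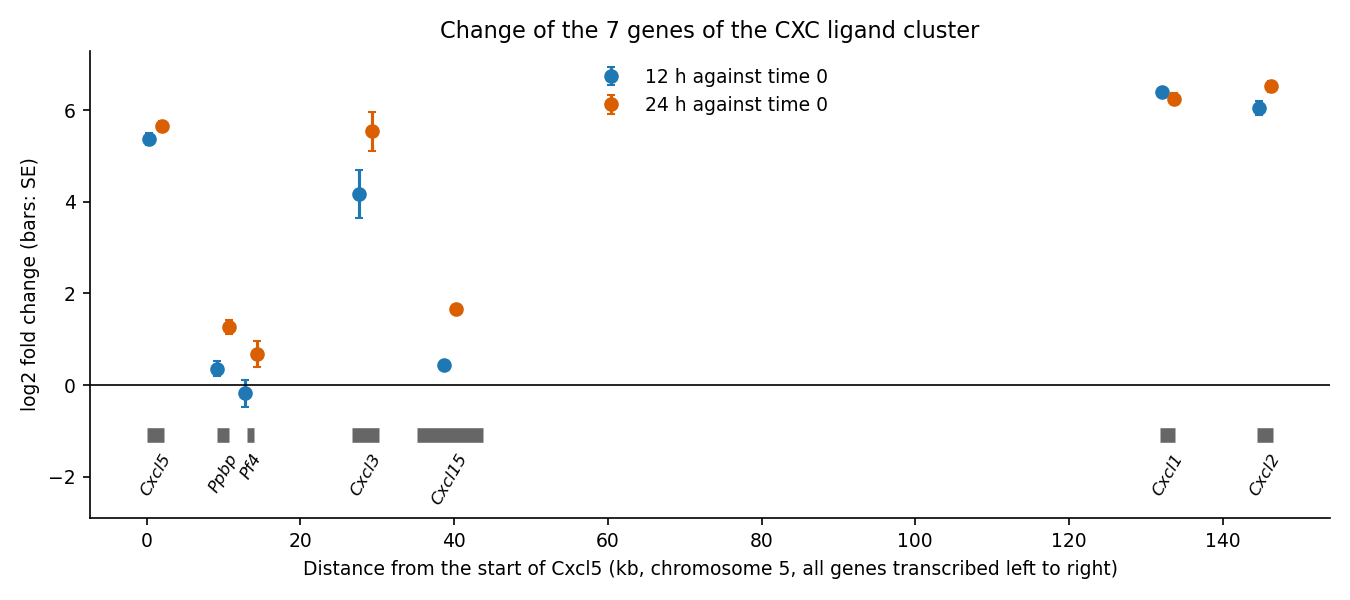
Log2 fold change with its SE (y axis) of the 7 protein-coding genes of the CXC ligand cluster, against distance in kb from the start of Cxcl5 (grey bars: genes), with blue for 12 hours and orange for 24 hours against time 0 and points shifted sideways to stay apart. Cxcl5, Cxcl3, Cxcl1 and Cxcl2 lie at 4.17 or more at both times, and Ppbp, Pf4 and Cxcl15 between them at 1.65 or less.

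Outside the cluster, Ccl9 was called higher at 12 hours (1.07, SE 0.20, adjusted p of 1.4e-03 by edgeR's quasi-likelihood test) and again at 24 against 12 hours (1.19). Ccl5, the T cell and monocyte attractant RANTES, had a log2 fold change of 0.55 at 12 hours that was not called (adjusted p of 0.20 by edgeR) and was higher at 24 hours than at time 0 (2.24, SE 0.23) and than at 12 hours (1.71, SE 0.18). Ccl25 was called at 24 hours against time 0 (0.63) and against 12 hours (0.61). Both calls were lost with library totals (0.41 and 0.38), the former also without replicate 1 of time 0 (0.51) and the latter without replicate 2 of 12 hours (0.55) or replicate 3 of 24 hours (0.57). Exons of Ccl25 overlap those of Elavl1 on the opposite strand by 204 bp, Elavl1 had 2313 to 3249 counts in a library, and without the strand setting reads of the 2 genes there cannot be told apart, so the level of Ccl25 is uncertain. Cxcl17 was at 42.7 CPM at time 0 and 31.3 CPM at 24 hours, a log2 fold change of -0.45 (adjusted p of 1.9e-04 by edgeR) that stayed under the fold needed, whereas with library totals it was called lower (-0.67). Ccl27a was at 2.45 and 3.61 CPM and was not called (0.57 at 24 hours), and 55.5% of its mRNA stretches are shared with near-identical copies, which makes its count uncertain.

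Of 23 chemokine receptors listed, 14 were in the table and 3 or 4 passed the filter in a comparison. Cxcr2, the receptor of Cxcl1, Cxcl2 and Cxcl5, had at most 1 count in a library. Ccrl2, an atypical receptor that binds chemerin, had 4 to 6 counts before treatment, 17 to 35 after 12 hours and 7 to 26 after 24. Its log2 fold change at 12 hours was 2.44 (SE 0.47), given as a description because it passed the filter only through the 12-hour libraries, in which it was higher. It was not tested at 24 hours against time 0. Ackr3, which takes up Cxcl12, was called higher at 24 than at 12 hours (0.62, SE 0.06, adjusted p of 9.9e-07 by edgeR), at 156 ± 13.7 and 103 ± 7.27 CPM (SD, n = 3). That call was lost with library totals (0.39), without replicate 1 of 12 hours (0.58) and without replicate 2 of 24 hours (0.55).

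Among 7 genes listed for shedding, trimming and presenting chemokines, 5 were tested. Adam10 and Adam17, the proteases that release Cx3cl1 and Cxcl16, had log2 fold changes of -0.01 and 0.03 at 12 hours and of -0.32 and -0.24 at 24 hours. The latter had adjusted p-values of 1.1e-05 and 2.1e-04 by edgeR and stayed under the fold needed. The heparan sulfate proteoglycan Sdc4 was called higher at 12 hours (1.05, SE 0.04, adjusted p of 1.8e-11 by edgeR's quasi-likelihood test) and at 24 hours (0.81, SE 0.06), and its relative Sdc1 was called lower at 24 hours (-0.67, SE 0.06).

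The scatter between replicates differed among the ligands. The biological coefficient of variation from edgeR was 8.29% for Cxcl1, 8.25% for Cxcl2 and 9.63% for Cxcl5, against 3.95%, 4.64% and 3.99% for the trend of all genes at their level. Cxcl15 had 3.56%, against 3.93%. Replicate 2 had the highest CPM of Cxcl1, Cxcl5 and Cxcl3 at each of the 3 times, and of Cxcl2 and Cx3cl1 at 12 and 24 hours. Cxcl10 was on its trend (13.8% against 14.5%), and Cxcl16 was above it (30.5% against 17.5%).

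For each ligand, the genes with the most similar course were found by the Euclidean distance of their log2 CPM, relative to the mean of time 0, over the 9 libraries, among 10353 genes with a mean of at least 50 counts. Of the candidates, the closest to Cxcl1 was Nos2, the inducible nitric oxide synthase (distance 1.32), and it was the closest to Cxcl2 as well (1.44). Among the same candidates, the closest to Cxcl5 was Vcam1, an adhesion molecule for leukocytes (1.16), followed by Csf3, the growth factor G-CSF (2.19). Near Cxcl10 were Mefv (0.87), the NF-κB inhibitor Nfkbia (1.15) and the NF-κB subunit Relb (1.22). Near Cx3cl1, with a higher level at 12 hours and a level near that of time 0 at 24 hours, were Nfatc1 (0.40), Gbp7 (0.43) and Sik1 (0.43). Near Ccl2 were the matrix protein Ccn1 (1.58), complement C3 (1.66) and Gbp2 (1.70), near Cxcl16 were Glcci1 (1.76), Lypd3 (1.83) and Krt6a (1.85), and near Ccl20 were Armc2 (1.12), Nebl (1.14) and Sept8 (1.26). Ccl2, Ccl20 and Cxcl16 had few counts, so their distances are imprecise.

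Markers of other cells were summed beside the ligands. Of 10 leukocyte markers 8 were in the table, without Ptprc and Adgre1, and their summed level was 9.12 to 9.45 CPM before treatment, 18.2 to 22.3 after 12 hours and 17.7 to 24 after 24. Nearly all of it was Cd14, with 397 to 459, 770 to 1003 and 692 to 1114 counts, whereas the defining Csf1r, Itgam and Lyz2 had at most 4 counts in a library. The 4 fibroblast markers in the table, of 8, summed to 12.9 to 14.1 CPM, 12.2 to 12.5 and 9.12 to 10.3, mostly Pdgfra, with Col1a1 at 8 counts or fewer. The fibroblast gene Dcn had 7 to 11 counts before treatment, 8 to 16 after 12 hours and 9 to 29 after 24. Its log2 fold change at 24 hours against time 0 was 1.20 (SE 0.49), which met the thresholds of a call, with libraries that overlapped. Dcn was named after its values were seen, so this is given as a description. The 5 endothelial markers, of 6, stayed at or under 0.754 CPM. Cd14 thus moved with the ligands, and its part in their levels was not tested.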

How the data were processed

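RNA-Seq was done on 9 libraries of MyC-CaP cells (3 each at time 0, 12 and 24 hours with ASPN). Per the labels, the authors made TruSeq mRNA libraries, sequenced paired ends, aligned with STAR and counted reads per gene with featureCounts (GRCm38.p6), and the deposited values are raw counts for 15384 genes. Positions and lengths came from GENCODE M21 (the authors used M24). 15374 genes matched by identifier. Groups came from the sample titles.

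Counts were filtered with filterByExpr, scaled with TMM and tested with edgeR 4.0.16 (quasi-likelihood, R 4.3.3, limma 3.58.1) in each pair of times, with Benjamini-Hochberg adjustment over all tested genes. Calls needed an adjusted p of 0.05 or less and at least 1.5-fold. Profiles used log2 CPM with a prior count of 2. Intervals of log2 fold changes are 1.96 SE. On simulated counts the method was tested for errors. No replicate pair agreed within counting noise, as their chi-square divided by its degrees of freedom was 3.41 to 17.5.

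The 8 ligands and the lists of other ligands, receptors and markers were chosen with earlier results of these data known. Named were the 8 ligands, genes of the ligand, receptor and shedding lists that were called or had at least 100 counts in a library, defining markers, and the 3 nearest profiles of each ligand. Cxcr2, Csf1r, Itgam and Lyz2 were named as defining genes, and Dcn after its values were seen. Some of the epithelial and prostate markers, and the sum of that list, are not reported here. Alternatives were DESeq2 1.42.0, RLE and upper-quartile factors, library totals, no filter, all 9 libraries in 1 fit, the replicate number of the labels as a block, and leaving out each library.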

Additional observations from a re-analysis of the deposited data

Results flagged for a closer look

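For 9 ligands or receptors the change after 24 hours differed from that after 12 hours by a direct test of the difference, which compares the libraries of 24 hours with those of 12 hours (edgeR's quasi-likelihood test, 3 libraries against 3). They came from the 7, 11 and 4 tested genes of the 8 ligands, the other ligands and the receptors, where 10.4% of all tested genes were called higher and 15.3% lower. Among the 8 ligands this was Cx3cl1, lower at 24 hours by a log2 fold change of -0.82 (adjusted p of 1.8e-04). Ccl2 was higher by 1.18 and met the same thresholds, but it passed the filter only through the 24-hour libraries, so its value is a description. Among the other ligands of the cluster on chromosome 5 these were Cxcl3 (1.39), Cxcl15 (1.24), Ppbp (0.92) and Pf4 (0.88), all higher at 24 hours. Outside the cluster Ccl5 (1.71), Ccl9 (1.19) and Ccl25 (0.61) were higher, as was the receptor Ackr3 (0.62). With library totals 4.25% of all tested genes were called higher and 24.8% lower. The calls of Pf4, Ccl25 and Ackr3 were each lost with library totals and in at least 1 fit that left out a library. Groups of 3 libraries are too small for a test of outlying samples, so none was made.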

How the results depend on the processing

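DESeq2, RLE factors, no filter, all 9 libraries in one fit and the replicate block changed neither the direction nor the call of any of the 64 gene values, and upper-quartile factors left 61 and library totals 53 of them. Counts of calls in either direction over all genes moved by less than 1.5 times with these alternatives. Those of 1 direction moved by more with library totals. The 11 lower calls at 12 hours became 5 with all 9 libraries in one fit and 18 with no filter. Leaving out replicate 2 of 12 hours gave 4 lower calls, and leaving out any other library gave 8 to 15. Of the receptors, 0 were called at 24 hours against time 0 by edgeR and by DESeq2 (1, Ackr3, had an unadjusted p under 0.05, with an adjusted p of 1.7e-05, and missed the fold at 0.48), and 1 met the thresholds with no filter and 1 with all 9 libraries, which was Ccrl2 in both. Of the 8 ligands, 2 met the thresholds at 24 against 12 hours (Cx3cl1 and, given as a description, Ccl2), and 1 with library totals, where Ccl2 was lost. With each library left out in turn these were 1 to 2 ligands, and 0 to 2 receptors at 24 against 12 hours (1 with all libraries). With library totals the receptor called in that comparison was Ccr10, lower, and not Ackr3 (0.39).

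Library totals split the calls of all genes at 24 hours against time 0 into 698 higher and 3008 lower, against 1374 and 1924 with TMM, and at 24 against 12 hours into 484 and 2830, against 1184 and 1740. The directions that turned were of values near 0 that no test called. Ccl27a at 12 hours (0.00) was -0.01 with upper-quartile factors, -0.02 with library totals and -0.07 to 0.13 with a library left out. Cxcl16 at 24 against 12 hours (0.07) was -0.15 with library totals and -0.24 to 0.52 with a library left out. At 12 hours the values with a library left out were -0.09 to 0.16 for Ccl25, -0.43 to 0.03 for Pf4, -0.03 to 0.01 for Adam10 and 0.00 to 0.06 for Adam17. The cause was not tested. The log2 fold changes of Cxcl1, Cxcl2 and Cxcl5 against time 0 ranged from 5.19 to 6.74 over all alternatives. Pf4 at 24 hours against time 0 (0.68) lost its call with library totals (0.46) and without replicates 2 (0.51) and 3 (0.67) of time 0 and replicates 1 (0.53) and 3 (0.65) of 24 hours, and against 12 hours (0.88) with library totals (0.66) and without replicate 1 of 12 hours (0.71). Ccl25 at 24 hours against time 0 (0.63) lost it with library totals (0.41) and without replicate 1 of time 0 (0.51), and against 12 hours (0.61) with library totals (0.38) and without replicate 2 of 12 hours (0.55) or replicate 3 of 24 hours (0.57). Ccl5 at 12 hours gained a call without replicate 1 of time 0 (0.82), and Ccrl2 met the thresholds at 24 against 12 hours without replicate 2 of 24 hours (-1.58). Library totals gave a call to Cxcl17 at 24 hours against time 0 (-0.67) and Sdc1 at 24 against 12 hours (-0.65). Ccl27a gained one at 24 hours in 9 fits over both comparisons.

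With the replicate number as a block, 5, 5 and 2 ligands met the thresholds at 12 hours, 24 hours and 24 against 12 hours, as without it, and 172, 3247 and 2926 genes over all. Same-numbered libraries did not deviate together over all tested genes (correlations of -0.11 to 0.06), so the numbers were not taken as a pairing. For Cxcl1, Cxcl5 and Cxcl3, however, replicate 2 was the highest at each time. With the block the SE at 12 hours was 0.06 in place of 0.10 for Cxcl1 and 0.06 in place of 0.13 for Cxcl5. It was 0.31 in place of 0.30 for Cxcl10. Depth limits Ccl2, Ccl20 and Cxcl16, which had at most 35 counts in a library.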
